A study of Mus musculus with 47 samples.

Results

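Coregulators of the steroid receptors and genes known as targets of estrogen were followed in sorted mammary epithelial cells of mice given hormones and progesterone receptor antagonists. The genes were the coactivators Ncoa1, Ncoa2 and Ncoa3, the corepressors Ncor1 and Nrip1, and the estrogen targets Greb1 and Rerg. They were taken by symbol, without regard to case, and all 7 were found among the 22007 rows of the expression table. RNA came from 3 fractions sorted by flow cytometry, which the labels call luminal mature (LM), luminal progenitor (LP) and mammary stem cells (MSC). All donors were ovariectomized FVB mice, so their own ovarian hormones were removed in every group, the sham group included. Treatment lasted 14 days. One group was sham treated, a second was given estradiol and progesterone together (EP), and the remaining groups had EP plus either telapristone acetate (EP+TPA) or RU486, which is mifepristone (EP+RU486). Telapristone and mifepristone are both steroidal antagonists of the progesterone receptor. Doses and ages are not given in the sources used here. Each fraction and treatment held 4 libraries from separate mice, except LM with EP, which held 3, and the 47 libraries came from 20 mice.

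Estrogen and progesterone act through nuclear receptors that bind DNA and recruit other proteins. Coactivators of the NCOA family bind the hormone-loaded receptor and bring in histone acetyltransferases, while NCOR1 and NRIP1 recruit histone deacetylases and dampen transcription. In the mammary gland the estrogen and progesterone receptors are found mainly in luminal mature cells, and their neighbours respond to secreted signals. GREB1 is a cofactor of the estrogen receptor and a classical target of it, and RERG is a small GTPase of the RAS superfamily, induced by estrogen in breast cancer cells.

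Promoter windows were on hand in RefSeq (GRCm38.p6) for 4 of the 7 genes, Ncoa1, Ncor1, Nrip1 and Greb1. A window held 300 bases, 250 before and 50 after an annotated start. Among the windows nearest to each gene's 5′ end, those of Greb1 and Nrip1 held the estrogen response half-site GGTCA, searched on both strands, and are shown for that reason. Only the bases before the start are printed, with the half-site, or its reverse complement TGACC, in capitals. Greb1 lies on the minus strand at chr12:16800887-16801136, and Nrip1 on the minus strand at chr16:76373828-76374077.
Greb1: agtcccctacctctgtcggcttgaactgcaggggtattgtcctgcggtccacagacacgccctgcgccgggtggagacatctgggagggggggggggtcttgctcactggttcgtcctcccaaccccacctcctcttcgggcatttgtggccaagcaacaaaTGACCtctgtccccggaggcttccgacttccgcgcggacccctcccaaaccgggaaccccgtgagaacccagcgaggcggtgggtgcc
Nrip1: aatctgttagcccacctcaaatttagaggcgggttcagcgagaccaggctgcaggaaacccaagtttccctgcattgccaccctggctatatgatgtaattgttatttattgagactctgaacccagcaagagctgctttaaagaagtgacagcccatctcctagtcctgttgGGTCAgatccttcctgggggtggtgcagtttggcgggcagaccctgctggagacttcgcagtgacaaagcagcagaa
The Greb1 match began 88 bases before the start and the Nrip1 match 77 bases before it. The half-site occurred in 40.483% of 32851 windows of the same length. The full palindrome GGTCANNNTGACC occurred in 0.07% of them and in no window of the 4 genes. The progesterone response half-site TGTTCT (18.974% of windows) was found in the Ncoa1 window, beginning 38 bases after the start. It was also found in an Ncor1 window at an internal start, beginning at 185 and 12 bases before that start. The Ncor1 window nearest to the 5′ end held none. The full element GNACANNNTGTNC (0.475%) was found in no window of the 4 genes. A second Greb1 window at an internal start held the half-site beginning at 194 and 85 bases before that start. A match is a description of the letters, and no binding was measured here.

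Values are on the FPKM scale (fragments mapped to a transcript, scaled for its length and for library depth), rescaled between libraries. The values of a library summed to 281351 at the least and 349128 at the most among LM libraries, 297710 and 358375 among LP libraries, and 217977 and 356258 among MSC libraries. The read depth behind them is unknown. The authors' table had been adjusted gene by gene within 3 sets of libraries, so a gene's level can be compared only within a set. LM was the first set, LP with some MSC libraries the second, and the remaining MSC libraries the third. Levels therefore cannot be compared between LM and the other fractions, nor between the third set and any other library. A value at the lowest level that libraries of a set share, or at 0, is not evidence of absence. In bulk samples, fewer cells of a type and less RNA per cell cannot be told apart. Where groups of libraries are said below not to overlap, the share of all genes that separated them was not counted.

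Several libraries went against their fraction label by marker genes. In LM, the summed FPKM of 8 luminal mature markers was 544.9 to 1315 in sham and 272.3 to 1554 in EP, but 66.95 to 152.9 in EP+TPA and 39.05 to 89.52 in EP+RU486. Of those markers, Foxa1, Prlr and Areg were listed at 0 in 3 of 4 EP+TPA and in 4 of 4 EP+RU486 libraries of LM. Luminal progenitor markers, 8 genes, summed to 183.9 to 516.4 in the EP libraries of LM, to 237.6 in the EP+TPA library of mouse 332, and to between 2872 and 9593 in the other LM libraries. In LP the luminal mature markers summed to 191.3 to 1109 in EP, 279.2 to 509.9 in sham and 101.5 to 165.7 with either antagonist, and the luminal progenitor markers were lowest in EP, at 497.7 to 2777 against 5215 to 10910 elsewhere. Basal markers, 10 genes, summed to between 8.03 and 10140 in the MSC libraries, and luminal progenitor markers to between 626.5 and 5262. Some MSC libraries were low in basal and high in progenitor markers. The basal and progenitor sums were 8.03 and 3491 in EP+RU486 of mouse 313, and 411.6 and 4688 in that of mouse 329. In EP+TPA they were 130.7 and 3823 in mouse 312, and 199.7 and 5262 in mouse 328. 2 MSC libraries stood apart, sham of mouse 326 and EP of mouse 327, with adipocyte markers at 0 and endothelial markers at 14.79 and 0, against at least 308.8 and 123 in all other MSC libraries. Proliferation markers, 6 genes, summed in LM to 25.99 to 66.89 in EP, 0 to 0.8034 in sham and 3.613 to 14.89 in EP+RU486. In EP+TPA of LM they summed to 5.732 to 40.49, the highest being mouse 332. In LP they summed to 37.51 to 68.84 in EP, 3.674 to 4.503 in sham and 4.499 to 14.17 with an antagonist. In MSC the sums were 15.27 to 33.86 in EP and 5.272 to 18.25 in sham. The part of these markers in the results below was not tested.

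Greb1 was the gene of the 7 that rose with EP and was low again with both antagonists. In LM, Greb1 measured 3.45, 8.35 and 1.5 FPKM in the EP libraries of mice 306, 311 and 327, a mean of 4.43 ± 3.53 (SD, n = 3). The 4 sham libraries lay between 0 and 0.000921 FPKM, the EP+RU486 libraries between 0 and 0.102, and the EP+TPA libraries between 0 and 0.726. All 3 EP libraries stood above every library of the other treatments, and the highest of the others was EP+TPA of mouse 332, the library whose progenitor markers lay within the EP range. Without it, the EP+TPA libraries lay between 0 and 0.00485 FPKM. On the log2(FPKM + 1) scale, Greb1 was higher in EP than in sham by 2.23 (SE 0.32, adjusted p = 0.000458). It was lower in EP+TPA than in EP (-2.04, adjusted p = 0.00378) and lower in EP+RU486 than in EP (-2.17, adjusted p = 0.00104). Greb1 passed the filter on low values in LM only through the 3 EP libraries, so that some difference was built into its being tested. Without any 1 of those EP libraries it fell under the filter and was not tested. With the genes of the full fit kept, its difference from sham was 2.27, 1.74 and 2.69 without EP of mouse 306, 311 and 327. Greb1 entered that gene list through the same EP libraries, so these values do not remove the limit. Without EP+TPA of mouse 332, the difference of EP+TPA from EP was -2.23 (adjusted p = 0.000192). With only EP and EP+TPA in the fit, that difference missed it (adjusted p = 0.117).

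In LP, Greb1 measured 3.40, 0.354, 4.40 and 5.64 FPKM in the EP libraries of mice 306, 311, 322 and 327, a mean of 3.45 ± 2.26 (SD, n = 4). Sham libraries lay between 0.105 and 0.115 FPKM, EP+TPA between 0.105 and 0.173, and EP+RU486 between 0.105 and 0.327. The value 0.105 is the lowest that the libraries share, and 1 sham, 2 EP+TPA and 2 EP+RU486 libraries sat on it. Every EP library was above every other LP library, but the one of mouse 311 was only just above EP+RU486 of mouse 304. The difference from sham was 1.79 (SE 0.33, adjusted p = 0.000887), that of EP+TPA from EP was -1.76 (adjusted p = 0.00184) and that of EP+RU486 from EP was -1.72 (adjusted p = 0.00211). As in LM, the gene passed the filter only through EP libraries, here 3 of them. The mice did not keep their order: mouse 311 held the highest EP value in LM and the lowest in LP, and mouse 327 the lowest in LM and the highest in LP. In both fractions that order followed the summed luminal mature markers of the EP libraries, at 1554 (mouse 311), 406.5 (306) and 272.3 (327) in LM and at 1109 (327), 849.1 (322), 673.7 (306) and 191.3 (311) in LP. That sum holds Areg and Pgr, which are hormone targets themselves and rose with EP in LP. With them left out, a choice made after the values were seen, the other 6 markers summed to 776.2 (311), 318.7 (306) and 204.5 (327) in LM, the same order. In LP they summed to 798.8 (327), 481.5 (306), 477.7 (322) and 149 (311), which puts mouse 306 before 322, against the order of Greb1. Those 6 still hold Foxa1 and Prlr, which are on the list of other estrogen targets below, so that sum is not free of hormone targets. By the sum of all 8 markers, sham libraries lay within the range of the EP libraries in both fractions. By the 6 markers, LM sham libraries summed to 535 to 1300, which reached above the EP libraries. LP sham libraries summed to 266.7 to 474.9, within the EP range. Greb1 was near the lowest level in the sham libraries of both fractions.

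Rerg also rose with EP, and unlike Greb1 it stayed high with both antagonists. In LM it measured 0.657, 2.23, 0.544 and 0 FPKM in sham libraries of mice 305, 301, 310 and 326. The EP libraries measured 23.4, 4.36 and 13.8 FPKM in mice 306, 311 and 327, the EP+TPA libraries 15.6 to 22.1 and the EP+RU486 libraries 13.6 to 15.7. No treated library overlapped the sham range, and EP of mouse 311 was the lowest of the treated. The difference from sham was 2.88 for EP (SE 0.42, adjusted p = 0.000610), 3.57 for EP+TPA (adjusted p = 3.58e-05) and 3.20 for EP+RU486 (adjusted p = 6.71e-05). These 3 comparisons share the sham libraries. Against EP, Rerg differed by 0.69 in EP+TPA (95% interval -0.21 to 1.58) and by 0.32 in EP+RU486 (-0.58 to 1.21), neither past the threshold.

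In LP, Rerg measured 4.12 to 4.79 FPKM in sham libraries, a mean of 4.36 ± 0.30 (SD, n = 4). The EP libraries measured 20.2, 13.3, 14.4 and 3.31 FPKM in mice 306, 311, 322 and 327, EP+TPA 10.7 to 16 and EP+RU486 14.2 to 21.6. Both antagonist groups lay wholly above sham, while EP of mouse 327 lay below every sham library. Rerg was higher than sham by 1.15 in EP (SE 0.35, adjusted p = 0.0193), by 1.51 in EP+TPA (adjusted p = 0.0203) and by 1.78 in EP+RU486 (adjusted p = 0.00482). The EP call was lost without EP of mouse 306 (0.88, adjusted p = 0.0689) or 322 (1.03, adjusted p = 0.0584), and with only EP and sham in the fit (adjusted p = 0.0771). Without EP of mouse 327, with the genes of the full fit kept, the difference was 1.64 (adjusted p = 7.32e-06). The EP+TPA call was lost without sham of mouse 310 (1.49, adjusted p = 0.0582), sham of mouse 326 (1.48, adjusted p = 0.0551) or EP+TPA of mouse 323 (1.45, adjusted p = 0.0626). Among the EP libraries, the one lowest in Rerg was the one highest in luminal mature markers, mouse 311 in LM and mouse 327 in LP.

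**Figure D1:**
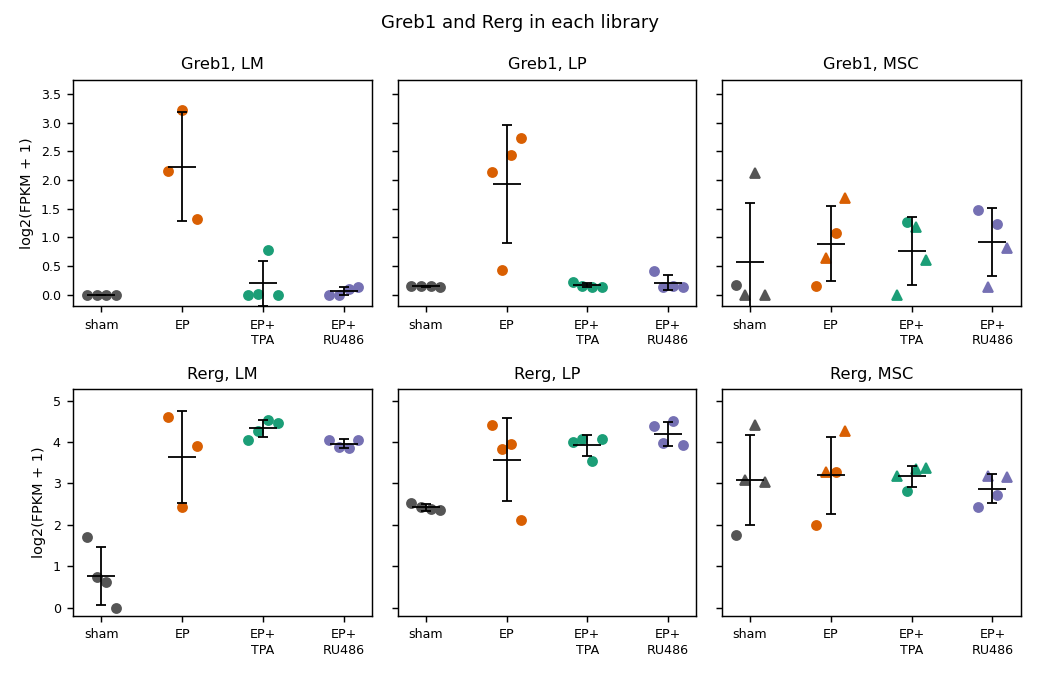
Greb1 (top) and Rerg (bottom) in each library of LM, LP and MSC, as log2(FPKM + 1) by treatment; points are libraries, triangles are MSC libraries of the third set, and bars are the mean ± SD. In LM and LP, Greb1 is high in EP alone, whereas Rerg is high in EP and with both antagonists. Levels are comparable only within a set, so not between LM and the other columns, nor between triangles and other points.

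**Figure D2:**
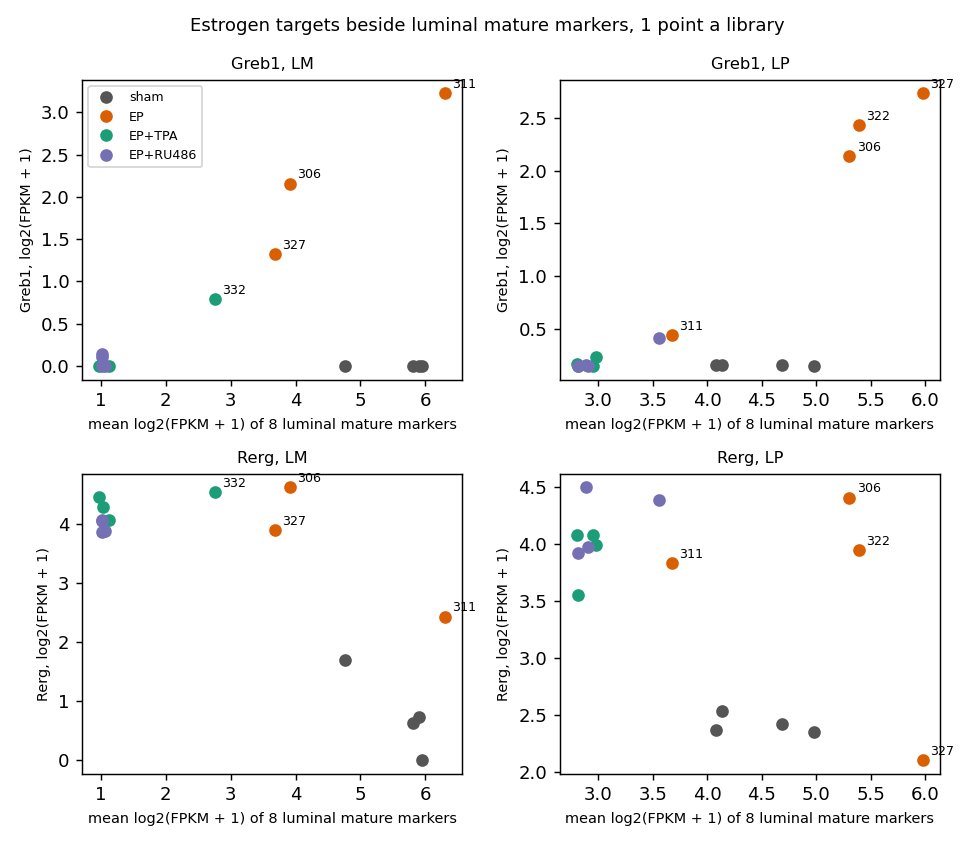
Greb1 (top) and Rerg (bottom) in LM (left) and LP (right), as log2(FPKM + 1), against the mean log2(FPKM + 1) of 8 luminal mature markers, 1 point a library, with the mouse number beside EP libraries and EP+TPA of mouse 332. Within EP, Greb1 is highest in the library where the markers, which include the hormone targets Areg and Pgr, are highest and Rerg is lowest there, while sham libraries combine high markers with low Greb1.

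Of the coactivators, Ncoa1 and Ncoa3 were called in LP, Ncoa3 for EP against sham only, as given further below. Ncoa1 encodes SRC-1, the founding member of the p160 coactivators. Sham libraries of LP measured 7.10, 8.78, 8.25 and 6.98 FPKM in mice 301, 305, 310 and 326, and EP libraries 5.55, 5.77, 3.88 and 3.68 in mice 306, 311, 322 and 327. EP+TPA libraries measured 9.34, 7.41, 7.24 and 6.40 FPKM in mice 312, 323, 328 and 336, and EP+RU486 libraries 9.91, 8.46, 8.09 and 5.72 in mice 304, 308, 324 and 329. All EP libraries were below all sham and all EP+TPA libraries, while EP+RU486 of mouse 329 fell within the EP range. Ncoa1 fell by 0.63 from sham to EP (SE 0.16, adjusted p = 0.00762). It was higher than in EP by 0.60 in EP+TPA (adjusted p = 0.0180) and by 0.66 in EP+RU486 (adjusted p = 0.00940). On the values as deposited the difference of EP from sham was -0.38 (adjusted p = 0.0837) and that of EP+TPA from EP was 0.46 (adjusted p = 0.0652), both short of the threshold. That scale put the median difference of all genes between EP and sham at 0.25, against 0 after rescaling. Rescaling by the median ratio brings this median near 0 by construction, so it does not show which scale is right. The EP+TPA call was also lost with only those groups in the fit (adjusted p = 0.0634) and without EP+TPA of mouse 312, EP of mouse 322 or EP of mouse 327 (adjusted p = 0.0645, 0.0626 and 0.0585).

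In LM, Ncoa1 measured 4.99, 6.04 and 2.82 FPKM in EP libraries of mice 306, 311 and 327, and 8.51 to 11 in EP+RU486. The difference of 0.93 between these 2 groups (95% interval 0.20 to 1.67) missed the threshold (adjusted p = 0.0709). Their libraries did not overlap, but how many of all genes separated them was not counted, so nothing is read from that. Sham libraries spanned 3.75 to 11.5 FPKM and EP+TPA libraries 3.23 to 9.61, both overlapping the EP libraries. With weights for library quality, EP against sham (-0.72, adjusted p = 0.0420), EP+TPA against EP (0.85, adjusted p = 0.0457) and EP+RU486 against EP (1.09, adjusted p = 0.00528) passed.

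Ncoa3, which encodes SRC-3 or AIB1, a coactivator amplified in some breast cancers, fell in LP with EP. It measured 5.41, 7.37, 6.35 and 6.20 FPKM in sham libraries of mice 301, 305, 310 and 326, and 4.09, 5.62, 4.64 and 3.74 in EP libraries of mice 306, 311, 322 and 327. The groups overlapped through EP of mouse 311. The difference of -0.41 (SE 0.14, adjusted p = 0.0328) lost its call on the deposited values (-0.17, adjusted p = 0.398), with scaling to the 75th percentile (-0.38, adjusted p = 0.0752), with only those groups (adjusted p = 0.0556), and without sham of mouse 305, 310 or 326 or EP of mouse 306, 322 or 327 (adjusted p = 0.0549 to 0.0954). EP+TPA libraries measured 4.45 to 6.33 FPKM and EP+RU486 libraries 4.62 to 6.73, and neither passed against EP, except EP+RU486 with weights for library quality (0.35, adjusted p = 0.0374). In LM, Ncoa3 passed in no comparison, with means of 4.61 to 5.84 FPKM over the 4 treatments.

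Ncoa2, the p160 coactivator known as GRIP1 or TIF2, passed in no comparison of any fraction. Its group means lay between 2.78 and 4.11 FPKM in LM and between 3.35 and 3.66 in LP, and the 95% interval of EP minus sham was -0.83 to 0.50 in LM and -0.35 to 0.50 in LP.

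Neither corepressor passed in any comparison. Ncor1, a platform for histone deacetylase complexes, had group means of 14.9 to 18.5 FPKM in LM and 13.6 to 15.4 in LP. Its intervals were the narrowest of the 7 genes in both, with EP minus sham at -0.61 to 0.19 in LM and -0.33 to 0.20 in LP. Nrip1, the hormone-induced corepressor RIP140, was the most abundant of the 7 in both fractions on this per-length scale, with group means of 22.1 to 34.6 FPKM in LM and 27.5 to 32.7 in LP. Nrip1 varied widely within LM groups, from 17 to 47.2 FPKM in EP and from 19.4 to 56.6 in EP+TPA. The 95% interval of EP minus sham was -1.17 to 0.62 in LM and -0.70 to 0.25 in LP.

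**Figure D3:**
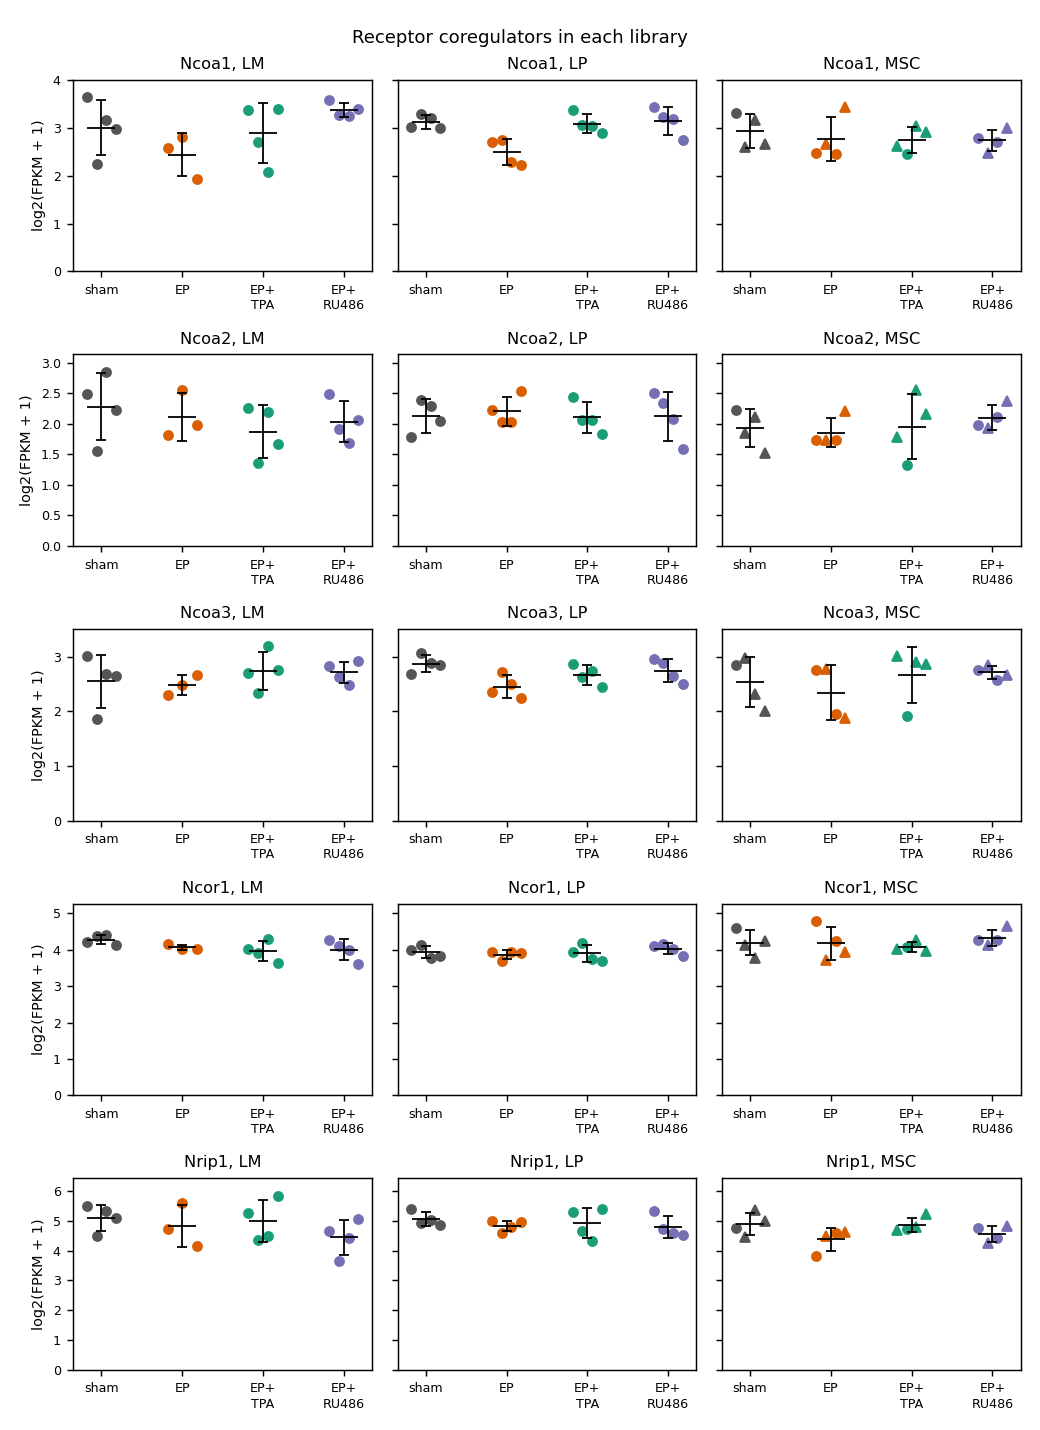
The coregulators Ncoa1, Ncoa2, Ncoa3, Ncor1 and Nrip1 in each library of LM, LP and MSC, as log2(FPKM + 1) by treatment, with bars for the mean ± SD and triangles for MSC libraries of the third set. In LP, the 4 EP libraries of Ncoa1 sit below all sham and EP+TPA libraries, and the corepressors overlap between treatments in LM and LP.

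Counted over the 7 genes, all of which were tested in each fraction, 2 rose and 0 fell from sham to EP in LM, where 19.5% of 11894 genes were called. In LP 2 rose and 2 fell, against 32.4% of 11384 genes. From EP to EP+TPA, 1 gene fell in LM (4.52% of genes called), and 1 rose and 1 fell in LP (18.4%). From EP to EP+RU486 the counts were the same, 1 lower in LM (17.9%) and 1 each way in LP (20.9%). Against sham, Rerg alone was called with either antagonist, in LM (16.1% for EP+TPA and 21.6% for EP+RU486) and in LP (5.09% and 10.6%). The contrasts with EP share the EP libraries and those with sham share the sham libraries, so their counts are not independent of each other. Greb1 is the gene lower with each antagonist in LM and LP and 1 of those higher with EP, and it was tested there only through its EP libraries, so nothing is read from these counts beside the shares of all genes.

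EP+TPA and EP+RU486 were compared directly for all 7 genes in each of the 3 fractions, and 0 passed. Over all genes, 0% were called in LM, LP or MSC by limma, with 1588, 199 and 197 genes at an unadjusted p under 0.05. In LM the 95% intervals of EP+TPA minus EP+RU486 were -0.49 to 0.76 for Greb1, -0.46 to 1.20 for Rerg and -1.16 to 0.20 for Ncoa1. In LP they were -0.75 to 0.67 for Greb1, -1.01 to 0.47 for Rerg and -0.41 to 0.28 for Ncoa1. A missed threshold does not show that the antagonists act alike, and their doses are not known.

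**Figure D4:**
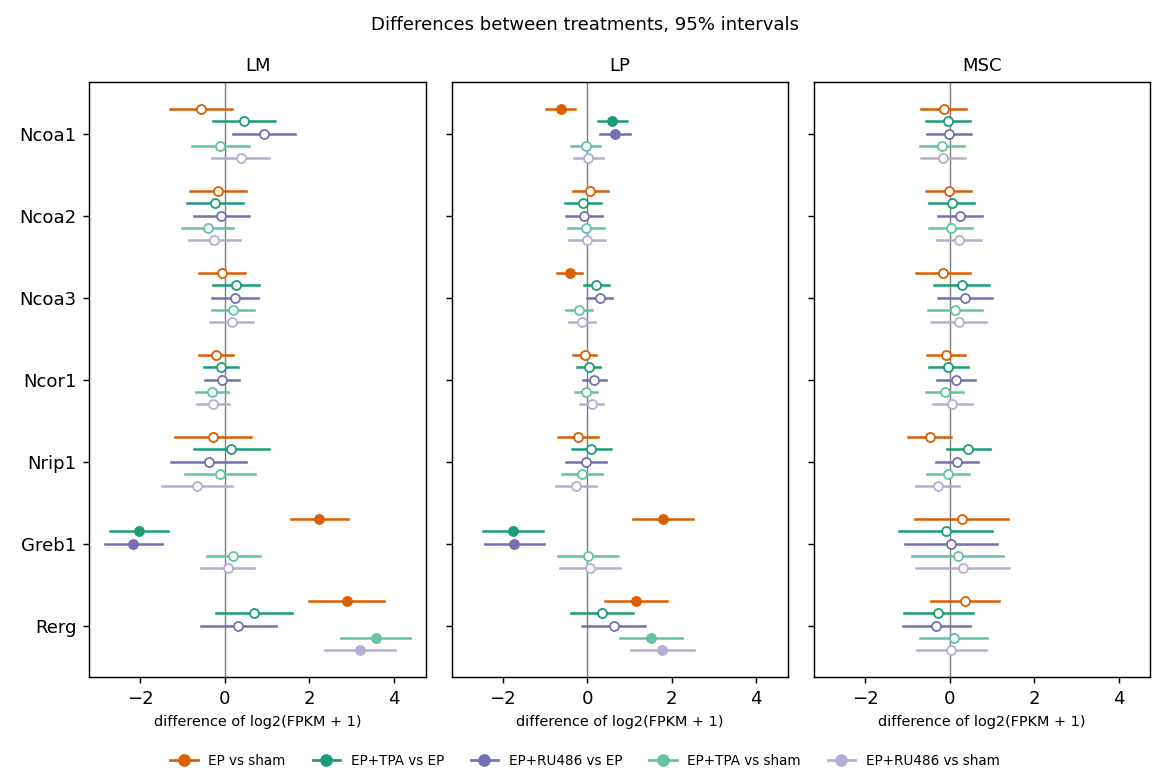
Differences between treatments of each of the 7 genes on the log2(FPKM + 1) scale in LM, LP and MSC, with 95% intervals; filled points passed an adjusted p of 0.05. In LM and LP, Greb1 stands away from 0 for EP against sham and for each antagonist against EP, and Rerg for the 3 comparisons with sham. Greb1 was tested there only through its EP libraries, so some difference was built into its points. Ncoa1 moves down with EP and up with either antagonist in LP, and all MSC points are open.

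In MSC, 0 of the 7 genes passed in any of the 6 comparisons. There 0% of 12188 genes were called in each by limma, with 645 genes at an unadjusted p under 0.05 for EP against sham, 854 for EP+TPA against EP, 582 for EP+RU486 against EP, 411 and 416 for the antagonists against sham. Several MSC libraries had low basal and high luminal progenitor markers, as given above, so they cannot be read as basal cells alone. The FPKM values of MSC groups below come from 2 sets that were adjusted separately, for which the fit had a term. Greb1 measured 0.130, 0, 3.33 and 0 FPKM in sham libraries of mice 305, 310, 326 and 334, and 0.110, 0.556, 1.12 and 2.22 in EP libraries of mice 306, 311, 322 and 327. The highest value of each group came from the library that stood apart by its low adipocyte and endothelial markers, mouse 326 in sham and mouse 327 in EP. EP+TPA libraries ranged from 0 to 1.42 FPKM and EP+RU486 libraries from 0.1 to 1.8, within a sham range that reached 3.33 through mouse 326 alone. Greb1 differed by 0.28 between EP and sham (95% interval -0.82 to 1.39), and by 0.40 without those 2 libraries. Leaving them out moved its difference from sham from 0.19 to 0.75 in EP+TPA (adjusted p = 0.789) and from 0.32 to 0.78 in EP+RU486 (adjusted p = 0.997).

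Rerg in MSC measured 2.37, 7.44, 20.4 and 7.25 FPKM in sham libraries of mice 305, 310, 326 and 334, and 2.96, 8.61, 8.62 and 18.1 in EP libraries of mice 306, 311, 322 and 327. Again mice 326 and 327 were the highest. The antagonist libraries lay between 4.43 and 9.28 FPKM, inside the range of sham. Its EP minus sham difference was 0.36 (95% interval -0.45 to 1.17). That difference was 0.87 within the second set, which held 1 sham library (mouse 305) and 2 EP libraries, and 0.25 within the third.

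Nrip1 came nearest to a change in MSC, at 25.9, 21.1, 39.9 and 30.9 FPKM in sham libraries of mice 305, 310, 326 and 334 against 13.1, 21.7, 22.9 and 23.7 in EP libraries of mice 306, 311, 322 and 327. EP+TPA libraries measured 24.7 to 36.6 FPKM, all above the EP libraries, though both groups mix libraries of 2 sets adjusted separately. How many of all genes separated these groups was not counted. The difference was -0.47 for EP against sham (unadjusted p = 0.0659, adjusted p = 0.949) and 0.44 for EP+TPA against EP (unadjusted p = 0.0826, adjusted p = 0.729). The other coregulators overlapped between all treatments, with Ncoa1 between 4.47 and 9.85 FPKM, Ncoa2 between 1.5 and 4.89, Ncoa3 between 2.66 and 7.02, and Ncor1 between 12.2 and 26.7.

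The receptors themselves moved in the luminal fractions. Of a list of 6 steroid receptors, 5 were tested in LM and 2 fell from sham to EP (40%, beside 19.5% of all genes), and 4 were tested in LP, where 1 rose and 1 fell (50%, beside 32.4%). From EP to EP+TPA, 1 fell in LM (20%, beside 4.52%), and 1 rose and 1 fell in LP (50%, beside 18.4%). From EP to EP+RU486, 2 rose and 1 fell in LM (60%, beside 17.9%), and 2 fell in LP (50%, beside 20.9%). Against sham, 4 were called with either antagonist in LM (80%, beside 16.1% and 21.6%) and 1 in LP (25%, beside 5.09% and 10.6%). Esr1, the estrogen receptor, measured 23.9 ± 6.77 FPKM in sham and 5.19 ± 5.48 in EP libraries of LM (difference -2.32, adjusted p = 0.00243). With the antagonists it measured 0.999 ± 0.395 FPKM (TPA) and 1.36 ± 0.657 (RU486). Pgr, the progesterone receptor, was lower with TPA (-2.03, adjusted p = 0.0185) and with RU486 (-2.16, adjusted p = 0.00547) than with EP in LM. In LP, Pgr rose with EP by 1.08 (adjusted p = 0.0224) and was lower than in EP with TPA (-1.89, adjusted p = 0.00116) and RU486 (-1.57, adjusted p = 0.00408), a direction shared with Greb1. Esr1 in LP was lower with RU486 than with EP (-0.92, adjusted p = 0.0497). In LM, the glucocorticoid receptor Nr3c1 was higher with RU486 than with EP (0.68, adjusted p = 0.0438). In LP, Nr3c1 was higher with TPA than with EP (0.43, adjusted p = 0.0352). In MSC none of Esr1, Pgr and Nr3c1 passed in the 3 comparisons of EP with sham and of the antagonists with EP.

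Other coregulators, a list of 53 genes, had shares called near those of all genes. In LM 51 were tested, and from sham to EP 6 rose and 6 fell (23.5%, beside 19.5% of all genes), with a median difference of -0.05 beside -0.01. Fkbp5, a co-chaperone of steroid receptors and a classical progesterone and glucocorticoid target, rose from 4.80 ± 1.72 to 24.5 ± 9.33 FPKM (2.13, adjusted p = 0.000203). With the antagonists it stood at 8.20 ± 1.27 (TPA) and 7.94 ± 1.70 FPKM (RU486), below EP in both (-1.42, adjusted p = 0.00851, and -1.47, adjusted p = 0.00302). Cited1, a coactivator of the estrogen receptor that also marks luminal mature cells, fell from 215 ± 135 to 27.5 ± 45.5 FPKM with EP and was listed at 0 in all LM libraries with an antagonist. Kat2b, a histone acetyltransferase, and Ddx5, an RNA helicase, fell with EP by 0.74 and by 0.71. The deacetylase Hdac1 was lower than in EP with TPA (-0.76, adjusted p = 0.0455) and RU486 (-0.97, adjusted p = 0.00571), and the demethylase Kdm1a (-1.01) and methyltransferase Prmt1 (-0.87) were lower with RU486. In all, 2 of the list fell and 0 rose from EP to EP+TPA (3.92%, beside 4.52% of all genes), and 6 fell and 2 rose from EP to EP+RU486 (15.7%, beside 17.9%).

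In LP 51 of those coregulators were tested, and 10 rose and 5 fell from sham to EP (29.4%, beside 32.4% of all genes; median 0 in both). The deacetylase Hdac2 rose from 25.2 ± 3.42 to 44.8 ± 6.43 FPKM (0.81, adjusted p = 9.58e-05), and Trim28 (0.90), the acetyltransferase Kat2a (0.69) and the receptor co-chaperone Fkbp4 (0.89) rose too. With TPA, 8 fell and 2 rose against EP (19.6%, beside 18.4% of all genes), among them Hdac2 (-0.51), Cited1 (-1.60) and the chromatin remodeller Smarca4 (-0.57) on the lower side and the mediator subunit Med24 (0.68) on the higher. With RU486, 7 fell and 2 rose (17.6%, beside 20.9%), with Hdac1 (-0.68), Cited1 (-1.50) and Med14 (-0.45) lower and Med24 (0.69) higher.

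The list of other estrogen targets, 45 genes, held genes that moved either way. In LM 37 were tested, and 1 rose and 5 fell from sham to EP (16.2%, beside 19.5% of all genes). The 4 with the smallest adjusted p all fell, namely Ltf, an iron-binding milk protein that is also a progenitor marker, listed at 0 in the 3 EP libraries, Rara (-1.44), Fhl2 (-2.23) and Celsr2 (-1.33). Against EP, 6 fell and 1 rose with TPA (18.9%, beside 4.52% of all genes) and 9 fell and 5 rose with RU486 (37.8%, beside 17.9%). The leading ones were Foxa1, Prlr, Stc2 and Myb, listed at 0 in 3 of 4 EP+TPA libraries and in all 4 EP+RU486 libraries of LM, the first pair being luminal mature markers as well. The EP+TPA library that had values for them was that of mouse 332.

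In LP 38 of these targets were tested, with 7 higher and 10 lower in EP than in sham (44.7%, beside 32.4% of all genes). Areg, the ligand that carries estrogen signals between mammary cells, rose from 18.3 ± 10.2 to 224 ± 143 FPKM (3.29, adjusted p = 0.000586) and was lower than in EP with TPA (-4.49, adjusted p = 9.24e-05) and RU486 (-4.29, adjusted p = 0.000157). Myb, a transcription factor, was likewise lower than in EP with TPA (-2.03) and RU486 (-1.86). Ltf (-3.54), Fhl2 (-1.32) and Rara (-1.24) fell with EP. Ltf (2.42 with TPA and 2.46 with RU486) and Wisp2 (2.04 and 2.18) were higher with the antagonists than with EP. Of the list, 7 rose and 8 fell with TPA (39.5%, beside 18.4% of all genes) and 9 rose and 8 fell with RU486 (44.7%, beside 20.9%). In MSC 0 of 51 coregulators and 0 of 39 targets passed in any comparison by limma.

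The genes whose values ran most like a member's over the libraries of the fraction where that member had its smallest adjusted p are given as a description. Libraries of one treatment move together in such a ranking, and no test is attached. Over 15 LM libraries, Greb1 ran closest to Fcna (Pearson r = 0.991), and also close to Ctns (0.982), a lysosomal cystine transporter. In LM, Rerg ran closest to Rnase1 (0.978), Tgfb2 (0.970) and Hacd1 (0.967). Over 16 LP libraries, Ncoa1 ran closest to Pard3 (0.944), Hivep3 (0.940) and Fam208a (0.935), and Ncoa3 to Prkaa2 (0.949), Zfp809 (0.921) and Sp1 (0.896). In LM, the nearest genes were Pik3c2a (0.926), Myh9 (0.919) and Sptan1 (0.919) for Ncoa2, Ccdc28a (0.878), Cdkn1b (0.851) and Arl10 (0.810) for Ncor1, and Kpna4 (0.946), Kpna1 (0.917) and Acbd3 (0.917) for Nrip1.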

How the data were processed

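RNA from 47 sorted mammary libraries was sequenced as full-length amplified cDNA, per the labels' protocols. STAR, Cufflinks, DESeq2 and the build mm9 are named, without versions, in the submitters' processing notes. The deposited values have the scale of FPKM, although the file is described as read counts, and carry an adjustment by gene within 3 sets of libraries, inferred from values that libraries share: 15 LM libraries, then 16 LP with 6 MSC libraries, then 10 MSC libraries.

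From these values, libraries were rescaled within a set by the median ratio over genes (factors 0.509 to 1.31). Genes with a value of at least 1 in 3 libraries, and above the shared lowest value in 3, were fitted with limma 3.58.1 (R 4.3.3) on log2(FPKM + 1), with trend and robust estimation, all 4 treatments of a fraction in 1 fit and a term for the set in MSC. Benjamini-Hochberg adjustment ran over all genes tested, and a call is an adjusted p under 0.05. Fold changes on this scale understate those of low genes. The code was tested on simulated data. Rows with date-like symbols (27) were left out.

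The labels name a mouse for each library, so replicates are separate animals. The members and gene lists were chosen with earlier results of these data known. The 7 members are named throughout; of the 2 larger lists, up to 4 called genes with the smallest adjusted p per fraction and comparison are named, with steroid receptors and up to 3 genes most like each member; some genes this rule names are not reported here. Alternatives were the deposited scale, 75th percentile scaling, a pseudocount of 0.1, no filter, library weights, fits of 2 groups, set terms and leaving out libraries; keeping the genes of the full fit without an EP library, and leaving out MSC of mice 326 and 327, were added after seeing the data.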

Additional observations from a re-analysis of the deposited data

Results flagged for a closer look

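Among 77 groups of 4 libraries, 6 held a library whose gap to the nearest other was larger than Dixon's 95% critical share of the group's range, and chance flags about 1 group in 20. Greb1 in the EP+TPA library of mouse 332 in LM measured 0.7259 FPKM, against 0.00485 in the next. That library was also the EP+TPA library of LM with low luminal progenitor markers and with values for Foxa1 and Prlr. Greb1 in EP+RU486 of mouse 304 in LP measured 0.3274 FPKM, against 0.109 in the next, and this library had the highest luminal mature markers of its group, at 165.7. Of the 6, 3 were in MSC, where a group holds libraries of 2 sets whose values were adjusted separately, so that a gap between libraries there can also span the sets. In MSC, Greb1 was 3.333 FPKM in sham of mouse 326, against 0.130 in the next, mouse 305, a library of the other set. The MSC library of EP mouse 327 was far from its group for Ncoa1, at 9.849 FPKM against 5.32, and for Ncoa2, at 3.644 against 2.34. Both of these MSC libraries had adipocyte markers listed at 0. Ncor1 in EP of mouse 311 in LP was low, at 11.8 FPKM against 14 in the next, and that library had the lowest luminal mature markers of its group. The part of the markers in these values was not tested.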

How the results depend on the processing

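No paired analysis was possible because each treatment group of a fraction came from different mice, so that the groups compared share no replicate number. Over 2034 refitted member differences, no called difference reversed, 29 lost and 5 gained a call, and 226 uncalled ones changed sign. Where a call was lost or gained, the cause was not tested. On the deposited values, 2 members were called in LP for EP against sham (4 in the report) and 1 for EP+TPA against EP (2). With fits of only the compared groups these were 2 and 1, and LM gave 0 for EP+TPA against EP (1) and 2 for EP+RU486 against EP (1). Library weights gave 2 in LM for EP+TPA against EP and 2 for EP+RU486 against EP. With those weights Ncoa1 also gained a call in LM for EP against sham, and Ncoa3 in LP for EP+RU486 against EP. With the genes of the full fit kept, LP had 2 called for EP against sham without EP of mouse 306 or 322, and 1 for EP+TPA against EP without 322 or 327. Leaving out 1 library gave 1 to 2 in LM for EP against sham, and 0 to 1 for each antagonist against EP. In LP it gave 1 to 4 for EP against sham, 0 to 2 for EP+TPA against EP, 1 to 2 for EP+RU486 against EP and 0 to 1 for EP+TPA against sham. Greb1 dropped under the filter without any EP library of LM, or without EP of mouse 306, 322 or 327 in LP, which lowers those counts.

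Counts over all genes moved more. Library weights called 4321 genes in LM for EP against sham (2317 in the report), 2534 (538) and 3489 (2124) for EP+TPA and EP+RU486 against EP, and 3622 (1918) and 5069 (2573) against sham. In LP they called 3159 (2095) for EP+TPA against EP, and 1460 (580) and 2648 (1210) for the antagonists against sham. In MSC they called 1090 for EP against sham, 156 and 103 for the antagonists against EP, and 5 and 3 against sham (all 0), with none of the 7 members. Fits of 2 groups called 2 in LM for EP+TPA against EP and 1167 against sham, and in LP 918 for EP+TPA against EP and 1993 for EP+RU486 against sham. Leaving out 1 library gave 882 to 2835 in LM for EP against sham, 183 to 2207 for EP+TPA against EP, 1091 to 2128 and 1284 to 1569 for EP+TPA against sham and EP+RU486 against EP and 1673 to 2377 for EP+RU486 against sham, and in LP 1356 to 2703 for EP+TPA against EP, 318 to 704 for EP+TPA against sham and 652 to 1048 for EP+RU486 against sham. The lowest of these came, in that order, without LM libraries of EP 327, EP+TPA 336, sham 326, EP 327 and sham 326, and LP libraries of EP 306, sham 310 and sham 310. The LM count of 2207 was the one without EP+TPA of mouse 332. In MSC it reached 17 for EP+TPA against EP. On the deposited values 80.6% of LP calls for EP against sham were higher (50.2% after rescaling), and 68.8% in LM (53.1%). The same scale gave 30.3% (46.5%) in LM for EP+RU486 against EP, and in LP 19.9% (42.4%) and 26.9% (43.3%) for EP+TPA and EP+RU486 against EP and 64.6% (35.2%) and 75.4% (39.9%) against sham, the last being 54.6% with 75th percentile scaling.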
